A study of Danio rerio with 4 samples.

Results

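The genes described here are 10 zebrafish genes of Tgf-β and Bmp signaling, namely the Tgf-β ligands tgfb1a, tgfb2 and tgfb3, the Bmp ligands bmp4 and bmp6, the inhibitory Smad gene smad7, and the Id genes id1, id2a, id2b and id3. They were taken by symbol from a table of 31466 features, and all 10 were present with counts in each library. Their levels were measured in single cells of adult AB zebrafish hearts, 6 h after ventricular cryoinjury (6 hpci) or 6 h after a sham operation (6 hps). In the sham operation the pericardium was opened and the cold probe was not applied. Each group held 2 libraries, and every library was made from pooled hearts, so the differences between individual fish were not measured. All fish of both groups had received the uridine analog 4-thiouridine 1 h before the operation and morphine after it. The dissociated cells of all libraries were fixed in methanol and treated with iodoacetamide for metabolic RNA labeling (scSLAM-seq), and the counts used here add labeled and unlabeled RNA.

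Tgf-β and Bmp ligands are secreted dimers that bring together serine/threonine kinase receptors at the cell surface, and the receptors phosphorylate Smad proteins that enter the nucleus with a common partner. Id genes are direct targets of Bmp-activated Smads in many vertebrate cell types. Id proteins hold a helix-loop-helix domain without the basic region and keep E proteins from binding DNA. Smad7 is induced by the pathway and blocks the receptors. In the zebrafish heart, Tgf-β and Bmp signaling are both known to take part in regeneration after cryoinjury.

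The libraries held 15971 to 23000 barcodes and 86891164 to 136777379 UMIs. Barcodes with more than 50% mitochondrial UMIs were left out, which removed 15.7 to 20.01% of the barcodes of the other libraries and 46.4% of 6 hpci replicate 2. Of 78127 barcodes, 57436 were kept. Hemoglobin genes took 3.43 and 7.45% of the non-mitochondrial UMIs in the 6 hps libraries and 10.1 and 14.7% in the 6 hpci libraries. Library pairs shared 84 to 293 barcode sequences. Cell types were gated by marker genes, none of which is among the genes described, and levels are given as UMIs per 1000000 non-mitochondrial UMIs (CPM) summed over the barcodes of a gate. A gate asked for at least 2 distinct markers and 3 marker UMIs at 5 times the average share of the library, or 1.5 times for cardiomyocytes. In all, 32069 barcodes fell into 10 gates with at least 30 barcodes per library, and 32.7 to 46.3% of the kept barcodes passed no gate. Blood vessel endothelium was gated as well, but with 59, 83, 27 and 16 barcodes it was described without a test.

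The 10 genes that stood out most in each gate were listed. A gate's own markers are among them by the gate rule, so only the other genes serve as a check. The cardiomyocyte, fibroblast, smooth muscle and mural, and erythrocyte gates were led by at least 4 of their own markers, the endocardium gate by aqp8a.1, spock3 and f8. The macrophage gate was led by grn1 and c1qc of its markers, the epicardium gate by gstm.3 and s100a10a together with the keratin genes krt4, krt15 and krt94, and the blood vessel endothelium gate by cldn5b and kdrl. The first gene that was not an own marker was fabp3 in ventricular and si:ch211-270g19.5 in atrial cardiomyocytes, and dpt in fibroblasts. It was itih1 in smooth muscle and mural cells, si:ch211-5k11.8 in erythrocytes and fabp11a in endocardium. In macrophages it was BX649485.2, and in blood vessel endothelium wu:fj16a03. The neutrophil gate was led by lyz together with lect2l and mmp13a, and also by the keratin genes krt5 and krt91. A gate built on dendritic cell markers was led by si:ch211-214p16.1 and si:ch211-214p16.2 with ccl35.1, nkl.1, cd74a and cd74b, and is called the unnamed gate. The genes id2b and id1, which no gate had used, were themselves among these leading genes, id2b in the endocardium gate and id1 in the blood vessel endothelium gate.

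**Figure D1:**
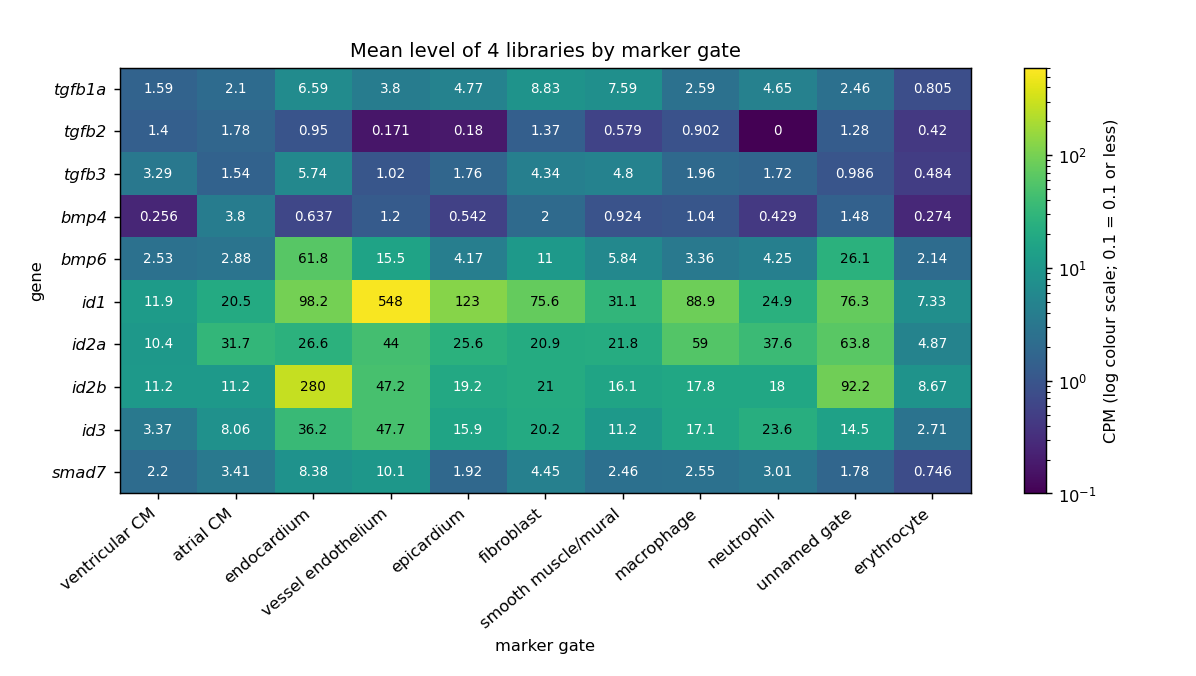
Mean level of each of the 10 genes (rows) in each gate (columns), as the mean CPM of the 4 libraries written in each cell, with the color on a log scale. Endocardium held the highest mean of bmp6 (61.8 CPM) and id2b (279.7 CPM), and blood vessel endothelium that of id1 (547.7 CPM).

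Among the Tgf-β ligands, tgfb1a had its highest levels in stromal cells and endocardium. Its level in fibroblasts was 10.1 and 9.53 CPM in the 6 hps libraries and 9.77 and 5.94 CPM in the 6 hpci libraries, a mean of 8.83 ± 1.94 CPM (SD, n = 4). In smooth muscle and mural cells it reached 12.6, 7.20, 6.05 and 4.46 CPM in the same order of libraries, and in endocardium 6.38, 8.95, 6.70 and 4.35 CPM. These 3 gates overlapped, and no neighbors in the order of means differed (edgeR quasi-likelihood test with the library as a block, adjusted p = 0.954 for fibroblasts against smooth muscle and mural cells, where 7.15% of all genes were called). Fibroblasts were above 5 of the 9 other gates in this fit, in which 1.79 to 20.4% of all tested genes were higher in fibroblasts than in another gate. The counts behind these levels were small, with 6 to 18 tgfb1a UMIs per library in fibroblasts.

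The second Tgf-β ligand gene, tgfb2, was the least covered. It had 41 to 108 UMIs per library, or 0.648 to 1.16 CPM. Atrial cardiomyocytes held 1.55, 2.36, 0.961 and 2.23 CPM in 6 hps replicates 1 and 2 and 6 hpci replicates 1 and 2, and ventricular cardiomyocytes 1.096, 1.60, 0.627 and 2.27 CPM. The cardiomyocyte gates together contributed most of the gated tgfb2 UMIs, on average 28.2% of all tgfb2 UMIs of a library from atrial and 18.6% from ventricular cells. No tgfb2 UMI was found in the neutrophil gate of any library, where 1 floor of 3 UMIs corresponded to 2.43 to 10.1 CPM, so its absence from these cells was not detectable at this depth. The gene did not pass the low-count filter of the fit across gates and was not tested there.

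For tgfb3 the highest mean was that of endocardium, with 2.87, 12.03, 3.15 and 4.92 CPM, followed by smooth muscle and mural cells with 0.526, 10.4, 2.02 and 6.25 CPM. Both gates were highest in 6 hps replicate 2, where tgfb3 was also highest over the whole library (4.37 CPM against 1.58 to 1.93 CPM in the others). Fibroblasts, with 3.11, 4.77, 3.55 and 5.94 CPM, were above endocardium in 3 of 4 libraries and came first without 6 hps replicate 2. Endocardium was above 4 of the 9 other gates in the fit, while 8.68 to 30.4% of all genes were higher in endocardium than in another gate. The difference of endocardium from smooth muscle and mural cells was within error (log2 difference -0.03 ± 0.42 SE, adjusted p = 0.975, with 30.6% of all genes called). Ventricular cardiomyocytes, the gate with the most barcodes, held 2.28 to 5.85 CPM and gave 19.0% of the tgfb3 UMIs on average. Endocardium was not called above them in the fit (log2 difference 0.56 ± 0.36 SE, adjusted p = 0.181).

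The Bmp ligand gene bmp6 had its highest level in endocardium, the endothelial lining of the heart chambers. Endocardial bmp6 was at 127.2 and 35.2 CPM in the 6 hps libraries and at 74.5 and 10.4 CPM in the 6 hpci libraries. The whole libraries also differed widely, with 15.6, 6.24, 9.45 and 2.09 CPM over all kept barcodes. Within libraries, endocardium was above 8 of the 9 other gates at an adjusted p under 0.05, by 5.03-fold over fibroblasts to 18.9-fold over atrial cardiomyocytes with erythrocytes aside, while 8.68 to 30.4% of all genes were higher in endocardium than in another gate. The exception was the unnamed gate, with 31.2, 26.8, 30.6 and 15.8 CPM (log2 difference 0.86 ± 0.33 SE, adjusted p = 0.0645, with 18.3% of all genes called). This contrast was called without a low-count filter (adjusted p = 0.00531), without the barcodes richest in UMIs (2.41e-05), with a stricter gate (0.00198), with mitochondrial genes kept (0.0293), and without 6 hps replicate 2 (0.0164) or 6 hpci replicate 2 (0.00604). The contrast was not called with library sizes alone (adjusted p = 0.0582), without a mitochondrial limit (0.0505) or with a 25% limit (0.389). Nor was it called with barcodes of several gates kept (0.0587), without 6 hps replicate 1 (0.393) or without 6 hpci replicate 1 (0.260). On average 29.1% of the bmp6 UMIs of a library came from endocardium, and 32.1% from barcodes that passed no gate.

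The other Bmp ligand gene, bmp4, was highest in atrial cardiomyocytes. Atrial cardiomyocytes held 4.43, 7.06, 2.04 and 1.64 CPM, from 77, 75, 17 and 14 UMIs. Ventricular cardiomyocytes were at or under 0.421 CPM in every library. Atrial cells gave 41.7% of the bmp4 UMIs on average (31.5 to 48.7%), and the next highest mean, 2.00 CPM in fibroblasts, came from 0 to 8 UMIs per library. As with tgfb2, the counts were too low for the fit across gates.

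**Figure D2:**
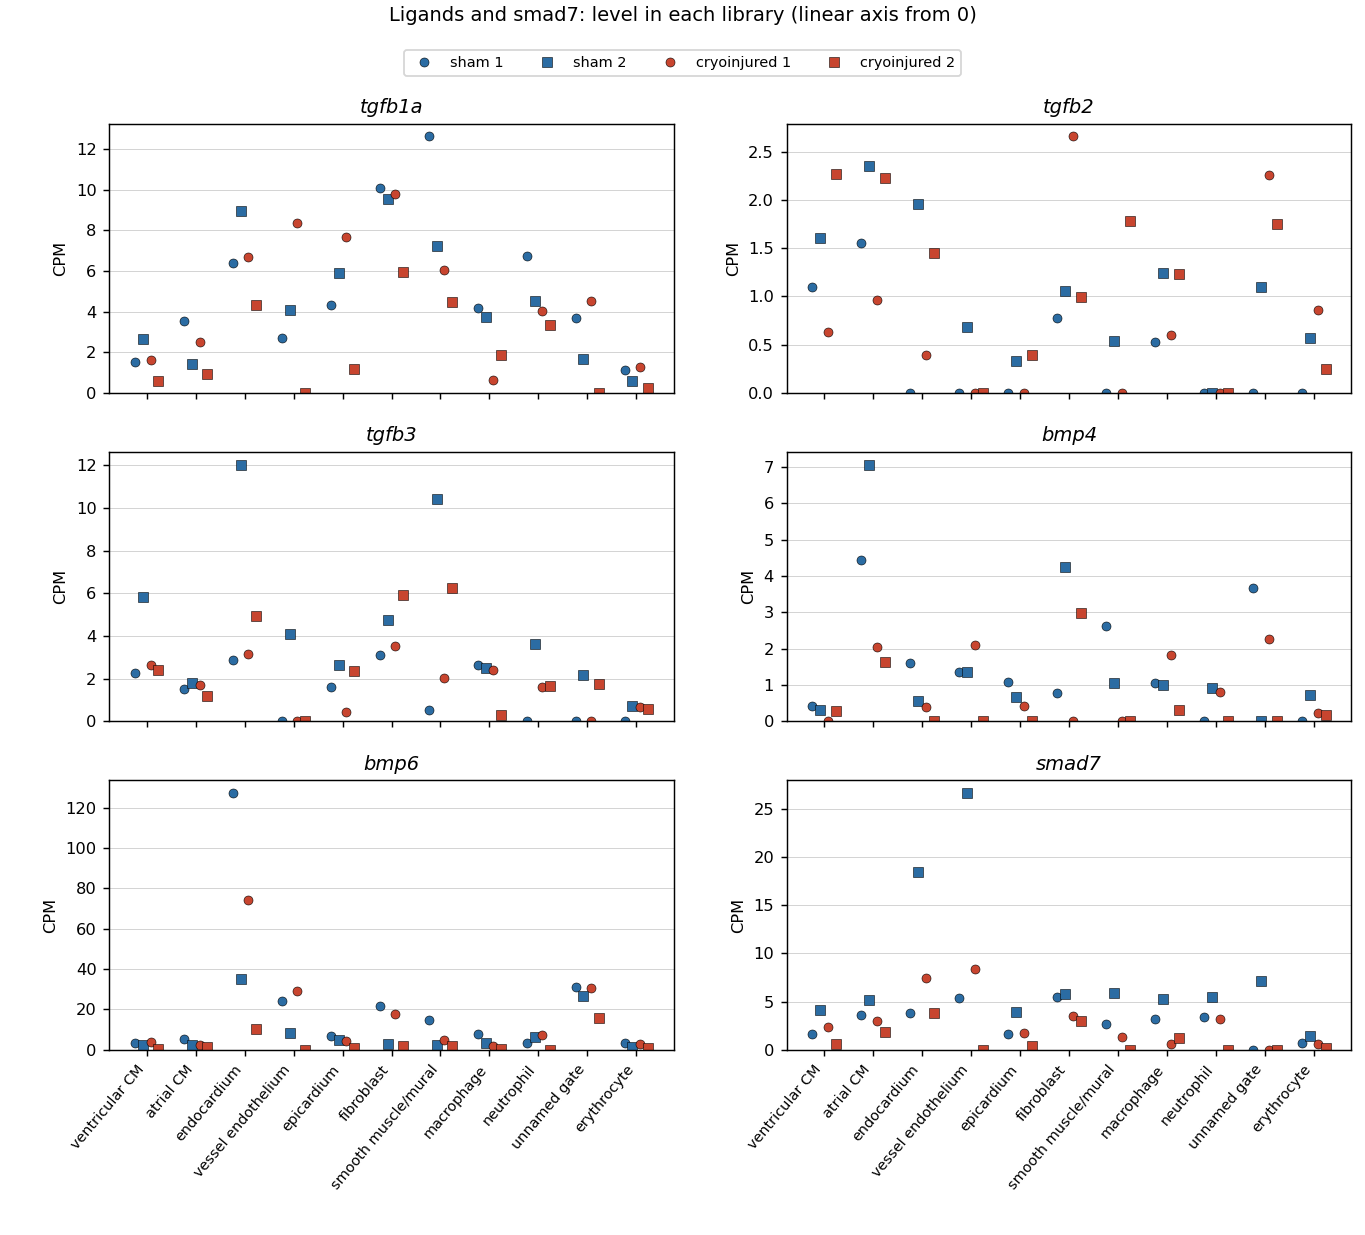
Level in CPM of the 5 ligand genes and smad7 in each gate (linear axis from 0), with 1 point per library (blue, sham at 6 hps; red, cryoinjured at 6 hpci; circles and squares, replicates 1 and 2). Endocardial bmp6 spans 10.4 to 127.2 CPM. Atrial bmp4 lies at 1.64 to 7.06 CPM with both 6 hpci libraries below both 6 hps libraries, as for 51.9% of all genes in that gate.

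The inhibitory Smad gene smad7 had its highest mean among the tested gates in endocardium. It was at 3.83 and 18.5 CPM in the 6 hps libraries and at 7.49 and 3.77 CPM in the 6 hpci libraries. Endocardium was above 8 of the 9 other gates, by 2.28- to 3.21-fold with erythrocytes aside, but not above the next gate in the order, fibroblasts (mean 4.45 CPM, log2 difference 0.79 ± 0.42 SE, adjusted p = 0.208, with 16.3% of all genes called). Of all genes, 8.68 to 30.4% were higher in endocardium than in another gate. Like tgfb3, smad7 was highest in 6 hps replicate 2. In blood vessel endothelium it ranged from 0 to 26.6 CPM.

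Of the Id genes, id2b was the one most concentrated in a single gate. Endocardial id2b was at 315.0 and 436.6 CPM in the 6 hps libraries and at 288.9 and 78.5 CPM in the 6 hpci libraries. The first 3 of these lay close together and 6 hpci replicate 2 stood apart. Barcodes with at least 1000 non-mitochondrial UMIs were thinned to 1000, and the others were left out of these shares. Of the thinned endocardial barcodes 18.9, 25.8, 18.6 and 7.66% held an id2b UMI. The shares were 1.12, 1.01, 0.467 and 0% of the thinned erythrocyte barcodes, taken as a measure of free RNA. That measure is a low one, since much of the RNA in these barcodes is hemoglobin. The median depth before thinning was 2672 to 3740 UMIs per endocardial and 2798 to 7179 UMIs per erythrocyte barcode. In each library endocardium was above all 9 other tested gates, by 3.39-fold over the unnamed gate (log2 difference 1.76 ± 0.34 SE, adjusted p = 0.000188) to 28.9-fold over atrial cardiomyocytes with erythrocytes aside. In the same comparisons 8.68 to 30.4% of all genes were higher in endocardium than in another gate. Endocardium contributed 36.8% of the id2b UMIs of a library on average, with a range of 28.6 to 52.3%.

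The unnamed gate came second for id2b, with 88.2, 64.1, 202.5 and 14.0 CPM. It was above fibroblasts, the next gate (log2 difference 1.95, adjusted p = 0.000393, with 10.6% of all genes called). The summed level of the 7 endocardial markers in this gate was 836.4, 1208, 513.7 and 406.4 CPM, against the 8732, 12077, 6231 and 11226 CPM in the endocardium gate itself, and none of these markers was at 0 in all libraries. In macrophages the same markers summed to 237.3 to 556.6 CPM and id2b was at 4.64 to 27.8 CPM. The part of endocardial RNA or doublets in the id2b and bmp6 of the unnamed gate was not tested. In ventricular cardiomyocytes id2b was found in 1.30, 0.994, 0.726 and 0.233% of thinned barcodes. Hemoglobin took a median of 49.7 to 60.2% of the non-mitochondrial UMIs of erythrocyte barcodes, against 1.00 to 2.70% in ventricular barcodes. The thinned shares of these gates are therefore not compared, and the part of free RNA in ventricular id2b was not tested.

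The gene id1, which the study displayed as a marker of blood vessel endothelium, had its highest level in that gate. It reached 368.3 and 619.0 CPM in the 6 hps libraries and 278.7 and 925.0 CPM in the 6 hpci libraries, and 40.7, 42.2, 22.2 and 53.3% of the thinned barcodes held an id1 UMI. The highest value rested on 16 barcodes, 1 of which gave 41.1% of the id1 UMIs. Each of the 10 tested gates was lower than this in every library. Among the tested gates id1 was spread widely, in contrast to id2b. Epicardium, the outer cell layer of the heart, held 162.6, 186.7, 62.2 and 78.8 CPM, endocardium 156.9, 87.5, 98.5 and 49.8 CPM, macrophages 130.9, 98.0, 62.2 and 64.7 CPM, and fibroblasts 73.8, 126.5, 68.4 and 33.7 CPM.

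In the normalized fit epicardium was above each of the 9 other tested gates for id1, by 1.81- to 13.9-fold. Its fitted lead over macrophages was 1.89-fold, where the mean levels were 122.6 and 88.9 CPM. Of all genes, 4.03 to 24.6% were higher in epicardium than in another gate. The lead of epicardium over endocardium for id1 was small (log2 difference 0.85 ± 0.30 SE, adjusted p = 0.0393, higher in 3 of 4 libraries, with 21.6% of all genes differing between these gates). This lead depended on the normalization, on the gate and barcode rules and on single libraries. With library sizes alone the log2 difference was 0.27 (adjusted p = 0.512). Nor was the lead called with a stricter gate (adjusted p = 0.142) or a 25% mitochondrial limit (0.257). The same held with barcodes of several gates kept (0.109) and with mitochondrial genes kept (0.0686). The lead stayed called without a low-count filter (0.00592) and without a mitochondrial limit (0.0140). It was not called without 6 hps replicate 1 (adjusted p = 0.118) or 6 hpci replicate 2 (adjusted p = 0.0652), and without 6 hps replicate 2 endocardium came first. Among endocardium, macrophages, the unnamed gate and fibroblasts, which followed in this order, no neighbors differed (adjusted p = 0.710 to 0.997), and fibroblasts were above smooth muscle and mural cells, the next gate (log2 difference 1.06, adjusted p = 0.0476). Cardiomyocytes were low, with 2.98 to 18.0 CPM in ventricular cells.

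For id2a the unnamed gate and macrophages had the highest means. Macrophages held 88.5 and 65.2 CPM in the 6 hps libraries and 41.7 and 40.5 CPM in the 6 hpci libraries. The unnamed gate held 84.6, 62.4, 32.8 and 75.3 CPM, and these 2 gates did not differ (log2 difference 0.09 ± 0.38 SE, adjusted p = 0.937, with 11.5% of all genes called). Blood vessel endothelium held 39.3, 75.8, 25.1 and 35.9 CPM and neutrophils 57.1, 31.7, 15.4 and 46.4 CPM. Neutrophils were above atrial cardiomyocytes, the next tested gate, in 1 of 4 libraries. The unnamed gate was above 6 of the 9 other gates, and with erythrocytes aside the largest fitted difference was 5.84-fold, over ventricular cardiomyocytes. Of all genes, 2.32 to 20.6% were higher in the unnamed gate than in another gate. Endocardium, where id2b was highest, was below the unnamed gate for id2a (adjusted p = 0.0104), with 45.6, 28.0, 24.0 and 8.98 CPM, a mean of 26.65 ± 15.05 CPM (SD, n = 4). Atrial cardiomyocytes held 60.2, 33.3, 25.5 and 7.63 CPM and gave 19.8% of the id2a UMIs on average, the most of any gate.

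The mean levels of id3 were highest in the endothelial gates. Endocardium held 35.4 and 59.0 CPM in the 6 hps libraries and 28.0 and 22.6 CPM in the 6 hpci libraries, and blood vessel endothelium 21.7, 75.8, 14.7 and 78.9 CPM. Endocardium was above 6 of the 9 other tested gates for id3, by up to 9.56-fold, while 8.68 to 30.4% of all genes were higher there. Endocardium did not differ from neutrophils, the next gate (log2 difference 0.51 ± 0.38 SE, adjusted p = 0.341, with 26.7% of all genes called). In the same fit it did not differ from fibroblasts (adjusted p = 0.0905) or epicardium (0.191) either. The blood vessel levels rested on 127 id3 UMIs at 6 hps and 18 UMIs at 6 hpci. In 6 hpci replicate 2 the neutrophil level was above that of endocardium. The neutrophil levels of 6.72, 13.58, 17.8 and 56.3 CPM came from 2, 15, 22 and 34 UMIs.

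In the fit across gates, the normalization turned the direction of contrasts with erythrocytes, whose RNA is mostly hemoglobin. For id2b, atrial cardiomyocytes were above erythrocytes in CPM in 4 of 4 libraries but below them in the fit (log2 difference -1.39). No order between cardiomyocytes and erythrocytes is therefore given for any of the genes, and erythrocytes are left out of the ranges of fold. Their mean levels were 2.14 CPM for bmp6, 0.746 CPM for smad7, 4.87 CPM for id2a and 8.67 CPM for id2b. Contrasts with epicardium were shifted as well. For tgfb1a, endocardium had a mean of 6.59 CPM against 4.77 CPM in epicardium, but a fitted log2 difference of -0.06. For id3, macrophages had a mean of 17.1 CPM against 15.9 CPM in epicardium, but a fitted log2 difference of -0.35. The fitted lead of epicardium for id1 holds this shift too.

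**Figure D3:**
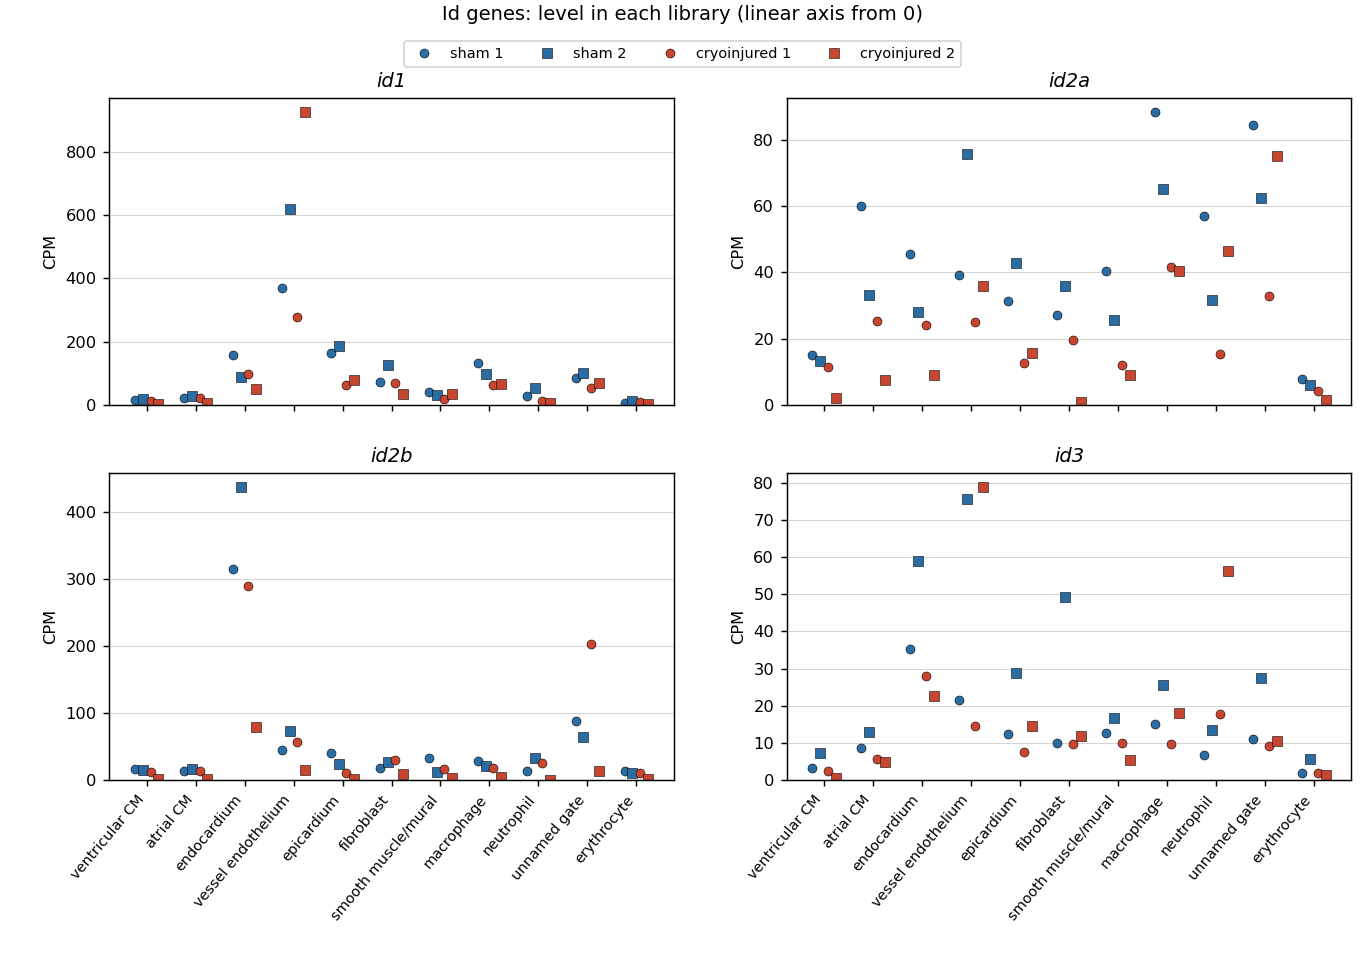
Level in CPM of id1, id2a, id2b and id3 in each gate (linear axis from 0), with 1 point per library (blue, sham at 6 hps; red, cryoinjured at 6 hpci; circles and squares, replicates 1 and 2). Endocardial id2b lies at 288.9 to 436.6 CPM in 3 libraries and at 78.5 CPM in 6 hpci replicate 2, and blood vessel id1 lies at 278.7 to 925.0 CPM.

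**Figure D4:**
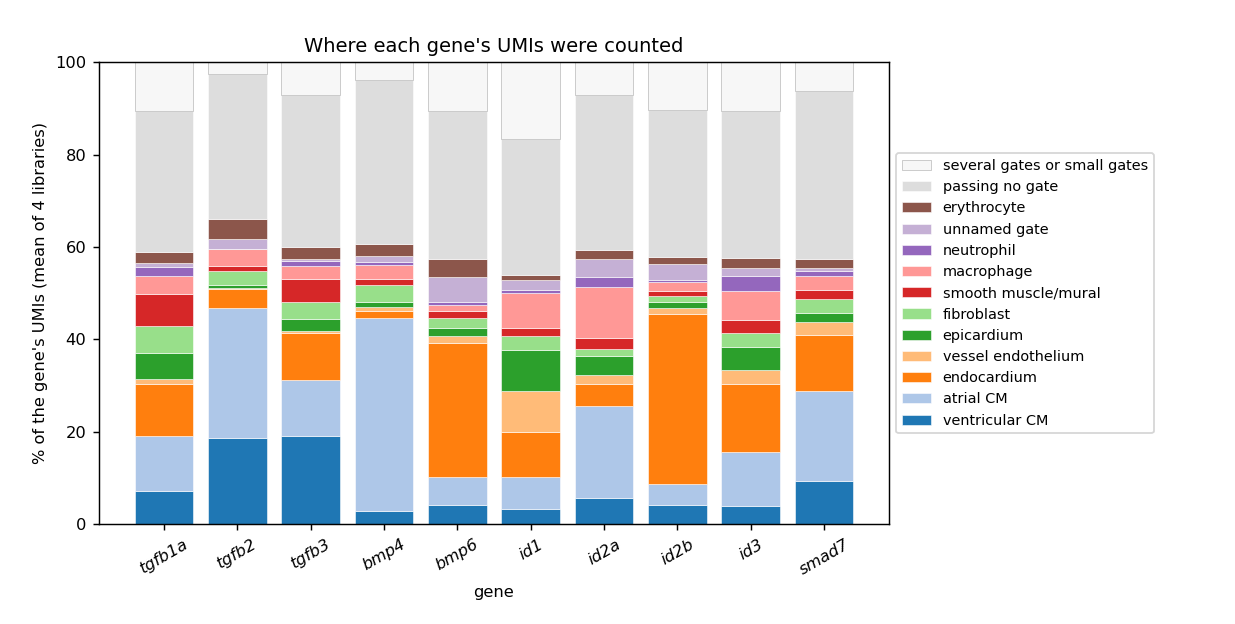
Share of the UMIs of each gene that came from each gate, in percent and as the mean of the 4 libraries (stacked bars from 0, with barcodes of no gate in gray and those of several or small gates on top). Endocardium gave 36.8% of id2b and 29.1% of bmp6 UMIs, and atrial cardiomyocytes 41.7% of bmp4 UMIs.

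The genes most like each member across the 40 sums of 10 gates and 4 libraries were found by the Pearson correlation of log2(CPM + 1), among 1541 or 1542 genes of at least 50 CPM in a gate. The sums of a library share its depth and handling, and no test was made. The closest genes to bmp6 were id2b (r = 0.88), sele and nos1apa (r = 0.87 and 0.84). Those to id2b were fabp11a, which encodes a fatty acid binding protein (r = 0.90), bmp6 and cdh5, which encodes VE-cadherin (r = 0.88 for both). So bmp6 and id2b, both highest in endocardium, were each among the nearest patterns of the other. With the other Id genes bmp6 had r = 0.56 for id1, 0.41 for id2a and 0.37 for id3. For bmp4, r was 0.19 to 0.25 with id1, id2a, id2b and id3. The part of shared endocardial expression in the likeness of bmp6 and id2b was not tested. The closest genes to id1 were krt8, rpz5 and si:dkey-23i12.5 (r = 0.83 to 0.85), where krt8 is a keratin gene. For id2a they were xbp1, a transcription factor gene of the unfolded protein response, ptges3b and rsrp1 (r = 0.85 to 0.88). For id3 they were ier2b, tpm3 and cnn2 (r = 0.86 to 0.87). For smad7 they were cyp26b1, which encodes a retinoic acid-degrading enzyme, mycb and zfp36l1b (r = 0.75 to 0.84). The less covered ligand genes had weaker likenesses, at most 0.74 for tgfb1a (snap23.2), 0.77 for tgfb3 (pmp22b) and 0.66 for bmp4 (map7d1a), and tgfb2 was not compared because it had 186 UMIs over all sums.

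The contrast of 6 hpci with 6 hps asked whether these genes respond within hours of injury. Over whole libraries, none of the 10 genes changed at an adjusted p under 0.05 (edgeR), and neither did any of the 14298 tested genes (0%). At an unadjusted p under 0.05 there were 0 of the 10 genes and 4.46% of all genes, and DESeq2 called 0 of the 10 genes and 52 genes in all. The level of id1 was 55.5 and 68.5 CPM at 6 hps and 33.7 and 26.6 CPM at 6 hpci, that of id2a 39.3 and 27.6 against 17.6 and 9.94 CPM, and that of id2b 45.6 and 47.3 against 37.3 and 8.86 CPM. Both 6 hpci libraries were below both 6 hps libraries for 7 of the 10 genes, but this held for 58.5% of all genes as well. In whole libraries fewer cells of a type and less RNA per cell cannot be told apart. The median fold change of all genes was -0.04 on the log2 scale after TMM normalization and -0.68 with library sizes alone, so direction depended on the scaling. After TMM the log2 fold changes of the 10 genes ran from -0.83 for bmp4 to 0.52 for tgfb2, and the smallest adjusted p was 0.829. With 2 libraries against 2, the smallest p that exact permutation allows for one gene is 0.333.

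Within gates, 62 pairs of gene and gate passed the low-count filter. None was called at an adjusted p under 0.05 in the fit without a replicate block, and the smallest adjusted p was 0.532, against 0.0021% of all 47559 gene and gate pairs called. DESeq2 called none of its 99 pairs of these genes. According to the sample sheet of the study, the libraries with the same number shared an operator. With the replicate number as a block, id2b in epicardium was called (log2 fold change -1.97, adjusted p = 0.00420), from 40.1 and 24.3 CPM at 6 hps and 11.1 and 1.17 CPM at 6 hpci, and 0.639% of all pairs were called. These levels rested on 148 UMIs at 6 hps and 29 UMIs at 6 hpci, and that of 6 hpci replicate 2 was at the floor of 3 UMIs. With 4 libraries, the block leaves few residual degrees of freedom. In the fit without the block, 5 of the 62 pairs had an unadjusted p under 0.05, against 5.35% of all pairs. Of the 62 pairs 51 had a negative fold change, or 82.3% against 50.9% of all pairs. With library sizes alone these shares were 95.2 and 80.5%. Without 6 hpci replicate 2 they were 62.1 and 54.3%, and without 6 hpci replicate 1 81.2 and 55.1%, of other totals of pairs. Without 6 hps replicate 1 they were 70.6 and 48.6%, and without 6 hps replicate 2 71.0 and 49.5%. The pairs come from the same 4 libraries and are not independent of one another. In the 62 pairs, the groups did not overlap for 28 pairs with both 6 hpci levels lower (all pairs 42.5%) and for 1 pair with both higher (all pairs 3.5%). The lowest of the 4 levels was that of 6 hpci replicate 2 in 46 of the 62 pairs and in 51.8% of all pairs. It is the library that lost 46.4% of its barcodes to the mitochondrial limit, and the part of RNA quality in these levels was not tested.

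**Figure D5:**
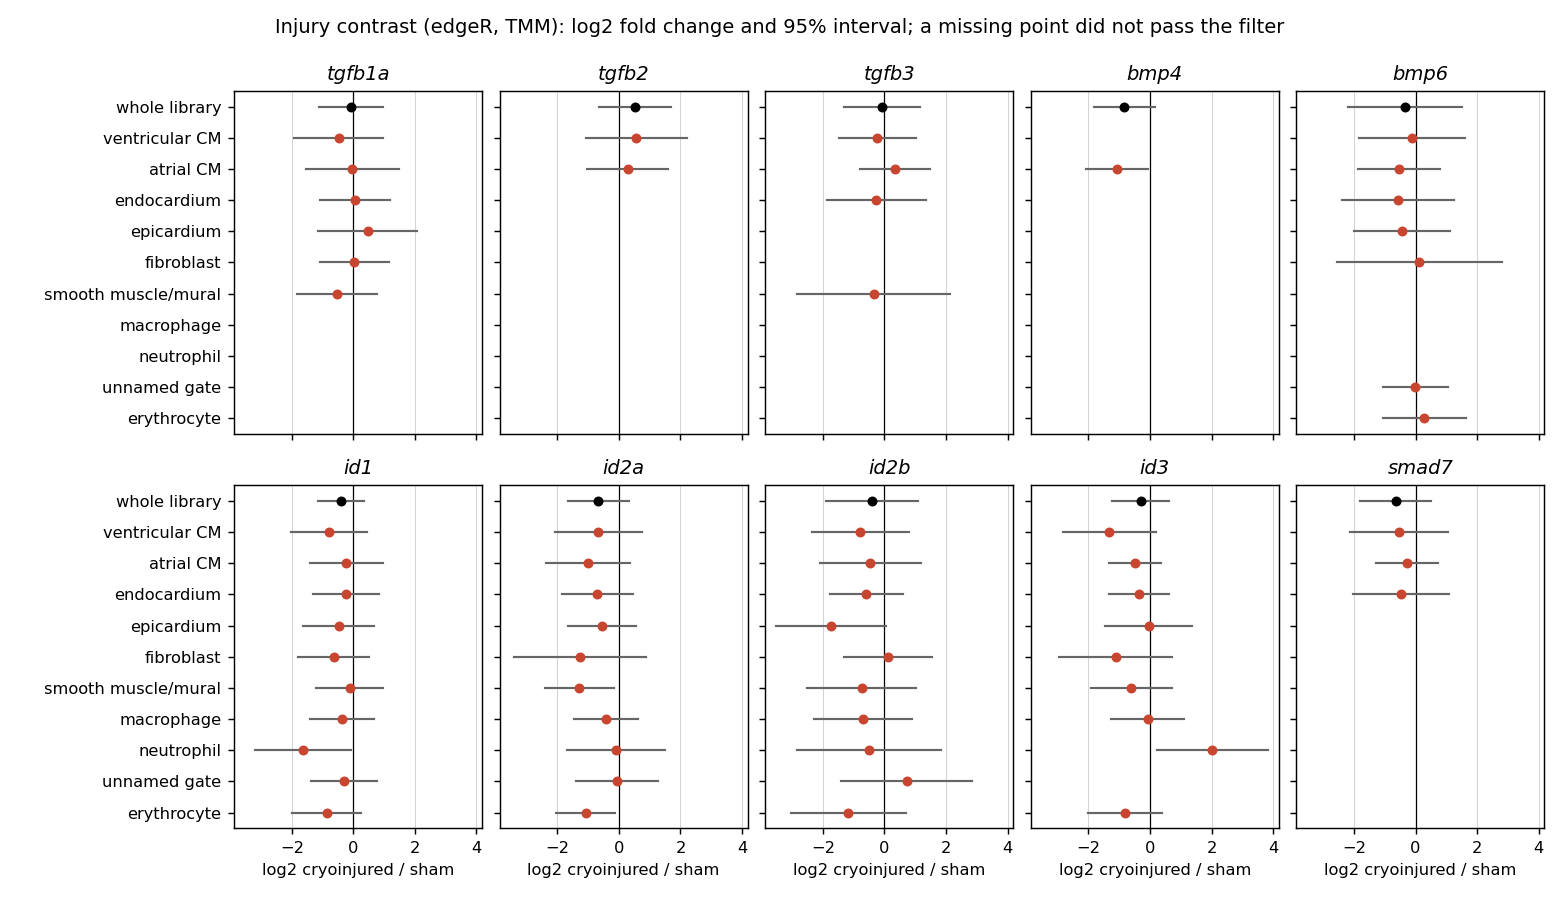
Log2 fold change of 6 hpci against 6 hps for each gene in whole libraries and in each gate (points, edgeR with TMM) with its 95% interval (lines); a missing point means that the gene did not pass the low-count filter there. No gene passed an adjusted p of 0.05, and the interval of endocardial id2b runs from -1.77 to 0.60.

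The endocardial levels show how wide the limits on an early response are. Endocardial id2b gave a log2 fold change of -0.59 ± 0.52 SE with a 95% interval of -1.77 to 0.60, and bmp6 of -0.57 ± 0.81 SE with an interval of -2.40 to 1.25. Neither differed beyond the spread between libraries (adjusted p = 0.999 for both), and changes of the sizes inside these intervals were not detectable. In 6 hpci replicate 2, where id2b and bmp6 were low, 871 barcodes were gated and their endocardial markers summed to 11226 CPM. The gate selects for these same markers, so this sum does not bear on the low levels, whose cause was not tested. For id1 in epicardium both 6 hpci levels were below both 6 hps levels, as for 58.7% of all genes in that gate. Its log2 fold change was -0.48 ± 0.49 SE (interval -1.62 to 0.67). For id2a in macrophages the same order, held by 42.8% of all genes in that gate, gave -0.42 ± 0.44 SE, with an interval of -1.46 to 0.61. Fibroblast tgfb1a was at 0.04 ± 0.47 SE, with an interval of -1.10 to 1.17.

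The 5 pairs at an unadjusted p under 0.05 were these. Atrial bmp4 went from 4.43 and 7.06 to 2.04 and 1.64 CPM (log2 fold change -1.07 ± 0.43 SE, unadjusted p = 0.0378, adjusted p = 0.599). In smooth muscle and mural cells id2a went from 40.5 and 25.6 to 12.1 and 8.92 CPM (-1.28 ± 0.50 SE, unadjusted p = 0.0295, adjusted p = 0.618). In erythrocytes id2a went from 7.76 and 6.16 to 4.09 and 1.48 CPM (-1.08 ± 0.44 SE, unadjusted p = 0.0310, adjusted p = 0.923). In neutrophils id1 went from 26.9 and 52.5 to 13.8 and 6.63 CPM (-1.64 ± 0.69 SE, unadjusted p = 0.0404, adjusted p = 0.999). The groups did not overlap in any of these 4 pairs, and none passed after adjustment. The neutrophil id1 levels rested on 8, 58, 17 and 4 UMIs. Of the 4 UMIs in 6 hpci replicate 2, 3 came from 7 barcodes rich in keratin genes, which are described below. Without these barcodes id1 was at 2.36 CPM in this library. Both 6 hpci levels were also the lower ones for 51.9% of all genes in atrial cardiomyocytes and 35.7% in smooth muscle and mural cells. These shares were 26.7% in erythrocytes and 29.1% in neutrophils.

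The fifth pair was id3 in neutrophils, the only one of the 62 with both 6 hpci levels above both 6 hps levels. Its log2 fold change was 2.03 ± 0.80 SE (unadjusted p = 0.0308, adjusted p = 0.999), with a 95% interval of 0.23 to 3.82. It rested on 17 UMIs at 6 hps and 56 UMIs at 6 hpci. In the neutrophil gate of 6 hpci replicate 2, krt5, krt91, fabp1b.2 and icn2 summed to 26272 CPM, against 3.36 to 17.0 CPM in the other libraries. In 7 of its 134 barcodes these genes made up 1% or more of the UMIs, and none of the 34 id3 UMIs of the gate was in these barcodes. Without these barcodes id3 was at 80.2 CPM in this library and the log2 fold change was 2.30. Without 6 hpci replicate 2 altogether it was 0.96, and without 6 hpci replicate 1 it was 2.62. Leaving out a 6 hps library gave 1.72 and 2.88. Each of these fits leaves 1 library in a group and is not read as a test.

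Whether the injury contrast differed between gates was tested for each gene in one fit. None of the 8 genes that passed its filter was called, and neither was any of 7024 genes (0%). The smallest unadjusted p was 0.00933 for id3 (adjusted p = 1), and id2b followed with an unadjusted p of 0.0641. Without a low-count filter id3 passed (adjusted p = 0.0330), in a fit that called 65 of 22269 genes. Each fit of this kind without a library has 1 library left in a group and is not read as a test here.

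The wider pathway was followed through lists of ligands, of receptors, and of Smad proteins and their regulators. Another list held extracellular antagonists together with latent binding proteins, such as that of ltbp1. The last list held further targets together with E protein genes, among them tcf3a, tcf3b and tcf12. Of 97 listed genes 88 were in the table. Over whole libraries 60 were tested, and 0 were called by edgeR or DESeq2. One, mstnb, which encodes a myostatin, had an unadjusted p under 0.05 (log2 fold change -1.44, adjusted p = 0.829). Within gates 181 pairs were tested and 0 were called by either tool, with 127 negative and 54 positive fold changes, and 9 negative and 1 positive at an unadjusted p under 0.05. These 10 pairs are 5.52% of those tested, near the 5.35% of all pairs. By list, 28 of 35 receptor pairs, 38 of 52 Smad pairs and 12 of 15 ligand pairs were negative. So were 34 of 41 pairs in the list of targets and E proteins. In the list of antagonists and latent binding proteins 23 of 38 pairs were positive. These directions depended on the scaling. The share of negative pairs over all lists was 70.2% after TMM and 87.8% with library sizes alone, against 50.9 and 80.5% of all pairs. With library sizes alone, 27 of the 38 pairs in the list of antagonists and latent binding proteins were negative.

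Genes with the highest levels in these lists showed where the rest of the pathway was expressed. Among ligands, bmp10l was highest in atrial cardiomyocytes, with 13.64 and 18.2 CPM at 6 hps and 14.8 and 18.9 CPM at 6 hpci. The duplicate of tgfb1a, tgfb1b, had its highest mean in neutrophils but reached at most 3.62 CPM there. That is near the floor of 3 UMIs in this gate, so neutrophils are not named as its source. The receptor gene bmpr2a led in endocardium, with 15.6, 33.0, 11.8 and 18.0 CPM in the order of the libraries above. Of the Smad genes, smad1, which encodes a Bmp-activated Smad, led in atrial cardiomyocytes with 40.3, 18.5, 13.8 and 6.22 CPM. The secreted follistatin-like gene fstl1b was at 213.5, 223.4, 210.5 and 405.8 CPM in fibroblasts (log2 fold change 0.86 ± 0.46 SE, adjusted p = 0.777). The pseudoreceptor gene bambia was highest in endocardium, at 30.6, 53.4, 41.8 and 14.2 CPM. Among the targets, the remaining Id gene, id4, was highest in atrial cardiomyocytes with 62.2 and 29.3 CPM at 6 hps and 41.1 and 3.64 CPM at 6 hpci. For id4 the levels of the 2 groups overlapped and 6 hpci replicate 2 was the lowest library.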

How the data were processed

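Each of the 4 libraries (2 at 6 hps, 2 at 6 hpci) was deposited by the authors as a matrix of UMI counts per gene and barcode, made with Cell Ranger 4.0.0 on GRCz11 (release 92) with an added RFP sequence, per the labels and the study's methods. Labeled and unlabeled reads were counted together. Total UMIs per library were 86891164 to 136777379, and the precision of a level is set by the UMIs behind it.

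The counts were used as deposited. Barcodes with over 50% mitochondrial UMIs were left out, no doublet caller was run, and barcodes passing more than 1 gate were left out. The gate rule was set after the marker distributions had been seen, and used none of the genes described. Counts were summed per library and gate. Shares of barcodes with a UMI were taken among barcodes with at least 1000 non-mitochondrial UMIs, each thinned to 1000. Differences were tested with edgeR 4.0.16 in R 4.3.3 (quasi-likelihood, robust, TMM, filterByExpr with a minimum count of 10), with Benjamini-Hochberg adjustment over all genes of a contrast and a threshold of 0.05. Gates were compared with the library as a block, and a joint test of group by gate terms was added. The fit was checked on simulated counts with a fixed spread and no shared effect of libraries with the same number. That check does not show how the fit behaves at the spread of these libraries. DESeq2 1.42.0, library sizes alone, no filter, a 25% mitochondrial limit, other gate rules, a replicate block and leaving out each library were alternatives. All 10 genes were described in every gate, and of the pathway lists the genes with the highest level in a gate (at most 4 a list) could be named. One of these is not reported here. The genes and lists were chosen with earlier results of these data known. Nothing in the labels says which fish went into which library, so the p-values measure the spread between these libraries, which may be technical in part.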

Additional observations from a re-analysis of the deposited data

Results flagged for a closer look

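The fold change of id3 stood apart between gates. In neutrophils both 6 hpci levels were above both 6 hps levels (log2 fold change 2.03), as for 3.5% of all pairs. In 4 of the 9 gates tested for this gene both 6 hpci levels were below both 6 hps levels, a share near that of all gene and gate pairs (42.5%). The joint edgeR test of a difference between gates gave an adjusted p of 1 for id3 (0.00933 before adjustment), so the difference did not pass.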

How the results depend on the processing

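Over whole libraries, 0 of the 10 genes were called under every alternative. Within gates, 0 pairs of these genes were called in the reported fit and 1 with the replicate block (id2b in epicardium, log2 fold change -1.97, adjusted p = 0.00420). An injury fit without a library leaves 1 library in a group, so its calls are not counted here. Of all gene and gate pairs, 0.0021% were called in the reported fit and 0.639% with the block. With other totals of pairs, the shares were 0.0487% with DESeq2 and 0.161% without a filter. Without 6 hpci replicate 1, 6 hpci replicate 2 stood alone for its group, so its spread was taken from the 6 hps libraries. Libraries with the same number deviated together in whole libraries (r = 0.46) and in 9 gates (0.17 to 0.42) but not in neutrophils (-0.003). The labels name no batch, but the study's sample sheet gives libraries of the same number a common operator, so the fit without the block leaves handling in the spread. The count of genes with a leading gate was 2 (id1 and id2b), and 1 with library sizes alone, with a 25% mitochondrial limit or with barcodes of several gates kept, and 1 to 3 without a library. It was 3 without a filter or without the tenth of barcodes with most UMIs, where bmp6 was added. With a stricter gate or with mitochondrial genes kept it was again 2, but bmp6 and id2b. Endocardium led for id2b in each of the 13 fits. The count of genes whose injury effect differed between gates was 0, and 1 without a filter, where 65 of 22269 genes were called. Of 332 recomputed fold changes in 24 results, 303 kept direction and call. That of id3 in neutrophils without 6 hpci replicate 1 kept its direction, in a fit with 1 library in that group that is not read as a test. In all, 28 reversed, 21 of these when a library was left out. The other reversals were, for tgfb1a, 0.057 over whole libraries with the 25% limit and -0.32 in fibroblasts with library sizes alone. For tgfb2 they were -0.14 over whole libraries and -0.28 in atrial cardiomyocytes with library sizes alone. For tgfb3 they were 0.032 with the block and 0.069 with the 25% limit over whole libraries, and for id2a 0.30 in the unnamed gate with the 25% limit. Without 1 library, fold changes over whole libraries ran from -0.63 to 0.33 for tgfb1a, -0.017 to 0.93 for tgfb2, -0.55 to 0.71 for tgfb3, -1.72 to 0.61 for bmp6, -1.69 to 0.28 for id2b and -0.58 to 0.15 for id3. In endocardium they ran from -0.83 to 1.05 for tgfb3, -2.21 to 0.80 for bmp6, -1.46 to 0.00441 for id2b, -0.55 to 0.013 for id3 and -1.09 to 1.00 for smad7. They ran from -0.27 to 0.34 for tgfb1a in fibroblasts, -0.45 to 0.83 for tgfb2 in atrial cardiomyocytes and -0.91 to 0.54 for id2a in the unnamed gate. The cause was not tested. Leaving out the tenth of barcodes with most UMIs gave no value for id3 in neutrophils, since the gene then missed the filter.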
